A study of Homo sapiens with 9 samples.

Results

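The olfactory receptor genes of chromosome 11 were described in BEAS-2B cells with and without mdig. They were taken as the protein-coding genes of that chromosome in the GENCODE 44 annotation mapped to GRCh37 whose symbols begin with OR, a family number, subfamily letters and a member number. This gave 177 of 20136 protein-coding genes, from 11 families, among them 6 with a symbol ending in P that the annotation still counts as protein-coding. Members of families 51, 52 and 56 are class I receptors, the group related to the receptors of fish, and numbered 57, and the other 120 were class II receptors. Members whose gene bodies lay within 500 kb of a neighbor were joined into a cluster, which placed 176 members in 10 clusters and left OR2AT4, a receptor for the synthetic sandalwood odorant Sandalore in skin cells, on its own.

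Olfactory receptors are G protein-coupled receptors of the nose, and each mature olfactory neuron expresses 1 of them from 1 allele. In mouse olfactory neurons the silent receptor genes are packed with H3K9me3, the mark of constitutive heterochromatin that HP1 proteins bind. H3K27me3 is laid down by the Polycomb complex PRC2 at repressed genes, H3K4me3 marks active or poised promoters, and H3R8me2a is asymmetric dimethylation of an arginine of histone H3.

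BEAS-2B cells come from normal human bronchial epithelium and were made to grow indefinitely with a viral construct. Both groups went through CRISPR-Cas9 targeting of mdig (mina53, the product of RIOX2) and were kept in medium with blasticidin. WT denotes cells that still made mdig, and KO denotes cells without it. The colony behind each library is not given in the labels, so the colony and the loss of mdig cannot be told apart. Each mark was measured in 1 ChIP-seq library per group, with 1 input library from WT, which leaves every difference below without a replicate, an error or a test. The deposited islands, stretches of enriched reads, carry a start and an end but no height or read number, and the depth behind them is unknown. Between 315 and 1505 islands per library lay on chromosome 11. A library comes from a population of cells, in which a mark in some of the cells and a weaker mark in all of them cannot be told apart. A gene's value was the number of its bases under islands, counted across the body and the 5 kb before the start. A gain required a KO length of 2 times that of WT or more and a surplus of 1 kb or more, and a loss the reverse.

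The label of the cells was checked against H3K4me3 at the starts of marker genes. H3K4me3 lay within 2 kb of the start of KRT7, KRT8, KRT18, CDH1 and EPCAM, 5 of the 8 bronchial epithelial markers, and of the mesenchymal markers VIM, FN1 and CDH2, in both libraries. At the start of CDH1 H3K27me3 was present as well, over 2200 bases of the 4-kb window in WT and over all of it in KO. H3K4me3 was absent from the starts of the basal cell markers KRT5 and TP63 and of KRT19. It was also absent from those of the 3 leukocyte and 3 erythroid markers. Among the markers of olfactory neurons, OMP, CNGA2 and STOML3 had no H3K4me3 at their starts, and CNGA4, GNAL, ADCY3 and GNG13 had it.

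Most of the receptor genes carried no island at all. In WT 147 of the 177 members had none of the 4 marks over their body and 5 kb upstream, in KO 131 had none, and 129 (72.9%) had none in either, against 9.30% of all protein-coding genes. Within 5 kb on both sides of the start, a window of equal size for every gene, the shares without an island in either library were 72.9% and 13.8%. The sequences before the starts of 5 members show what lay under the islands that did occur. They are the 250 bases before the annotated start, 5′ to 3′ in GRCh37, with each CpG in capitals. The first 4 were free of H3K27me3 in WT and lay under it in full in KO.
OR52B4: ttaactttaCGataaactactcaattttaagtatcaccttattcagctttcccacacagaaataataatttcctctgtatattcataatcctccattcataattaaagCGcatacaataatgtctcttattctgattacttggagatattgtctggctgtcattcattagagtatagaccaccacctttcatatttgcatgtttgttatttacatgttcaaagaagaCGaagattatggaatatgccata
OR52K2: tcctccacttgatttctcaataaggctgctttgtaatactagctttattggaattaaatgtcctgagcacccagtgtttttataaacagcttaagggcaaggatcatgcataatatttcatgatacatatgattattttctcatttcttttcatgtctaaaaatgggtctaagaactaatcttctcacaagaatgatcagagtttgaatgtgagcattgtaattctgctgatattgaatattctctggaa
OR10A3: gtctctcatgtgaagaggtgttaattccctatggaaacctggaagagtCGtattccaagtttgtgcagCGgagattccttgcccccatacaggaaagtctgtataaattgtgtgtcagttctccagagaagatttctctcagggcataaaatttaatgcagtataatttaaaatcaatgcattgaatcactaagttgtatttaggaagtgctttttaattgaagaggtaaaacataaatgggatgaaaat
OR4B1: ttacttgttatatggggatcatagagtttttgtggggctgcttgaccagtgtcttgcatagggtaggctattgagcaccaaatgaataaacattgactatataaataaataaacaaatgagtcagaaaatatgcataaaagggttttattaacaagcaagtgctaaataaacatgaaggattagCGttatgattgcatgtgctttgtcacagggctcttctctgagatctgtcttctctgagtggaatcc

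These windows are chr11:4389617-4389866 on the minus strand for OR52B4, chr11:4470275-4470524 on the plus strand for OR52K2, chr11:7963256-7963505 on the minus strand for OR10A3 and chr11:48238112-48238361 on the plus strand for OR4B1. They held 3, 0, 2 and 1 CpG, and their GC content was 31.2%, 32.8%, 36.4% and 36.8%. The last sequence, of OR52N2 on the plus strand at chr11:5829904-5830153, is that of the only member with H3K4me3 at its start, where all of the 250 bases lay under an H3K4me3 island in WT and in KO. It held 9 CpG at a GC content of 54.0%.
OR52N2: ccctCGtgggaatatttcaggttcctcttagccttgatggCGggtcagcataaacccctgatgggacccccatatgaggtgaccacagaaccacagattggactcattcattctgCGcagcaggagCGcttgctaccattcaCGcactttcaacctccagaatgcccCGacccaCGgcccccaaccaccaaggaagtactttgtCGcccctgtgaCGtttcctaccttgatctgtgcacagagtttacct

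The members as a group held fewer CpG at their starts than protein-coding genes at large. Over the window from 250 bases before to 50 bases after the start, the median number of CpG was 1 in the members and 18 in all protein-coding genes, and 26.6% of the members against 2.30% of all genes had no CpG. The core motif TAATTA of LHX homeodomain factors, searched on both strands, was in 21.5% of the member windows and in 3.81% of all windows of this length. OR52B4 holds it in the sequence above. The palindromic motif of EBF factors was in 2.26% and 1.37%. Matches of letters are given as a description, and the members have a median GC content of 37.3% there against 60.3% in all genes, whose part in these shares was not tested.

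H3K27me3 was the mark found at the largest number of receptor genes, and more of them carried it in KO. An island lay over 28 members (15.8%) in WT and 43 (24.3%) in KO, against 27.6% and 28.4% of all protein-coding genes. It was present in both libraries at 26 members, in KO alone at 17 and in WT alone at 2. By the rule of size 22 members (12.4%) had a gain and 1 a loss, and the same rule called a gain in 6.49% and a loss in 3.29% of all genes. Over the gene body alone, without the 5 kb upstream, 12 members (6.78%) had a gain, against 5.44% of all genes, and the 75 members with a body under 1 kb could not meet the 1-kb condition there. In 15 of the 22 the WT library had no island, and the number of bases was higher in KO in 39 members and lower in 4. The median difference was 0 in the members and in all genes. Of the coding sequences, which had a median length of 942 bases, 14 were touched by H3K27me3 in WT and 26 in KO, and 7 were covered in full in WT and 25 in KO. Within 2 kb of the start H3K27me3 was found at 22 members in WT and 33 in KO, against 20.3% and 21.4% of all genes.

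**Figure D1:**
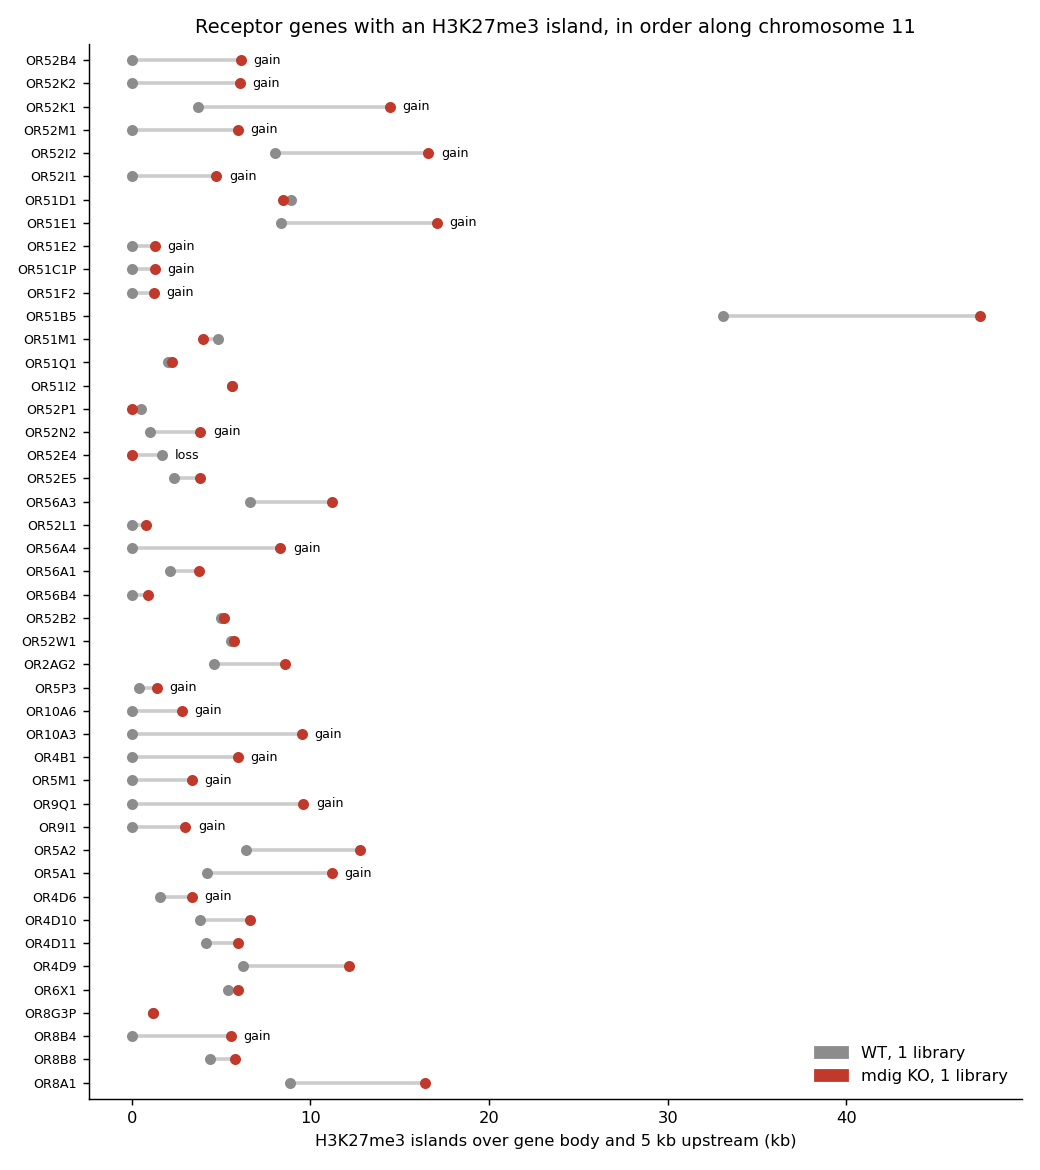
Length of H3K27me3 islands (kb) over the gene body and 5 kb upstream of each receptor gene with an island in either library, in order along chromosome 11, in WT (gray) and mdig KO (red), 1 library each. The red point lies to the right of the gray one in 39 genes, and OR52E4 is the only loss.

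Class I genes form a single cluster on the short arm, from OR52B4 to OR52W1, at chr11:4388493-6221416. It spans 1833 kb, holds all 57 class I members and encloses the β-globin genes and several TRIM genes. H3K27me3 islands covered 184.2 kb (10.05%) of it in WT and 385.7 kb (21.0%) in KO, in 32 and 43 islands. At the members an island was found at 16 in WT and 24 in KO. There were 12 gains (21.1%) and 1 loss, where all genes had 6.49% gains and 3.29% losses. Some of these gains rest on an island shared by neighboring members.

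The islands of KO were densest at the OR52B4 end. In the first 200 kb of the cluster H3K27me3 covered 12.4% in WT and 51.6% in KO, and in the next 200 kb 24.6% and 47.3%. The 10 consecutive members from OR52B4 to OR51C1P all had an island in KO, and 4 of them had one in WT. From no island in WT, OR52B4 reached 6.12 kb, OR52K2 6.07 kb, OR52M1 5.95 kb and OR52I1 4.73 kb. In KO the whole coding sequence of OR52B4, OR52K2 and OR52M1 lay under an island, and that of OR52I1 lay outside. The bases counted for OR52I1 lie upstream of it and belong to the KO island of 28 kb over OR52I2. The gains of OR52I1 and OR52I2 therefore share an island. OR52K1 had 3.73 kb in WT and 14.5 kb in KO, OR52I2 8.03 kb and 16.6 kb, and OR51E1, a receptor known from prostate epithelium, 8.35 kb and 17.1 kb. Its neighbor OR51D1 had 8.89 kb in WT against 8.49 kb in KO, and a single KO island of 29.4 kb, the longest in any of the clusters, ran over OR51D1 and OR51E1. OR51E2, the prostate-specific receptor PSGR, and OR51C1P, which overlaps it, went from none to 1.28 kb each, which is the same stretch upstream of both. OR51F2, farther along, went from none to 1.25 kb.

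The cover was uneven farther along the cluster. From 800 to 1000 kb, a stretch with 5 receptor genes and the adult β-globin gene HBB, H3K27me3 covered 0% in both libraries, and 1 island of H3K9me3 lay there in KO. Between 1000 and 1200 kb it covered 22.5% in WT and 33.5% in KO. OR51B5 had the largest difference of any member, 33.1 kb in WT against 47.5 kb in KO, and did not reach the factor of 2. Its annotated body of 202.2 kb begins at the same base as that of HBE1 and contains other receptor genes, so that value belongs to no single gene. OR51M1 had 4.80 kb in WT against 4.00 kb in KO, OR51Q1 2.04 kb against 2.24 kb, and OR51I2 5.60 kb in both.

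Toward OR52W1 both directions occurred. OR52E4 was the only member with a loss, from 1.71 kb to none, and its coding sequence was free of the mark in both libraries. OR52P1 went from 0.494 kb to none, which did not meet the call. OR56A4 went from none to 8.33 kb, with its coding sequence covered in full in KO, and OR52N2 from 1 kb to 3.85 kb. Both were gains. Values that did not meet the call were those of OR56A3 with 6.62 kb and 11.2 kb, OR52E5 with 2.36 kb and 3.8 kb, OR56A1 with 2.17 kb and 3.77 kb, and OR52L1 and OR56B4 with none and under 1 kb. The last 2 members of the cluster changed by 0.2 kb each, OR52B2 from 4.97 kb to 5.17 kb and OR52W1 from 5.55 kb to 5.75 kb. In the stretch that holds both, from 1800 kb to the end of the cluster, H3K27me3 covered 55.6% in WT and 48.3% in KO.

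**Figure D2:**
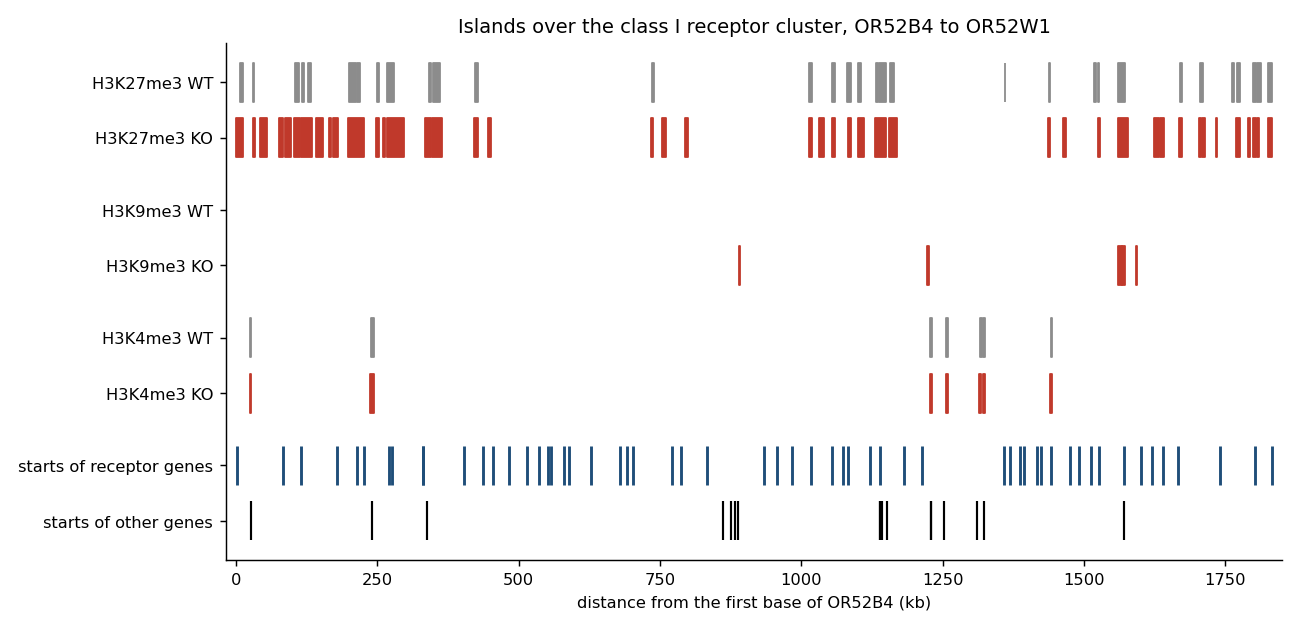
Islands of H3K27me3, H3K9me3 and H3K4me3 in WT (gray) and mdig KO (red) along the class I cluster, by distance from the first base of OR52B4 (kb), with the starts of the receptor genes (blue) and of the other protein-coding genes (black). H3K27me3 of KO is densest in the first 400 kb, and the 5 H3K9me3 islands of KO have no counterpart in WT.

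Class II genes lie in the other 9 clusters and at OR2AT4. An H3K27me3 island was found at 12 of the 120 members in WT and 19 in KO. There were 10 gains (8.33%) and no loss, where all genes had 6.49% gains and 3.29% losses. The clusters differed widely in how much of their length was covered.

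The 4 members from OR5P2 to OR10A3, in 145.7 kb at chr11:7817521-7963255, had the highest covered share of any cluster in KO, 11.4% in WT and 39.3% in KO. OR10A3 went from no H3K27me3 to 9.54 kb, under a KO island of 19 kb at chr11:7955001-7974000 that reached past both ends of the gene. Its neighbor OR10A6 went from none to 2.82 kb and OR5P3 from 0.387 kb to 1.39 kb, so 3 of the 4 members had a gain. The bases counted for OR10A6 lie upstream of it and belong to the island over OR10A3, so that these gains rest on 2 islands. The other member, OR5P2, had no island.

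The cluster of 8 members from OR5AN1 to OR10V1, at chr11:59126368-59481318, had 11.04% of its length under H3K27me3 in WT and 23.3% in KO. Its first member OR5AN1, a receptor for musk odorants, and its last, OR10V1, carried none. The 6 neighbors between them carried it in both libraries, the longest run of neighboring members in WT. In OR5A1, the β-ionone receptor, the length was 4.20 kb in WT against 11.2 kb in KO, with the coding sequence free in WT and covered in KO. OR5A2 had 6.40 kb and 12.8 kb, and OR4D9 6.20 kb and 12.2 kb, both just short of the factor of 2 with ratios of 1.99 and 1.96. On the other side of that limit lay OR51E1 and OR52I2 of the class I cluster, with ratios of 2.04 and 2.07. OR4D6 had 1.58 kb and 3.38 kb, which was a gain, while OR4D10 with 3.80 kb and 6.63 kb and OR4D11 with 4.15 kb and 5.94 kb were not. Each of the 7 KO islands in this cluster overlapped a WT island and was longer than what it overlapped, and 8 WT islands had become 7.

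**Figure D3:**
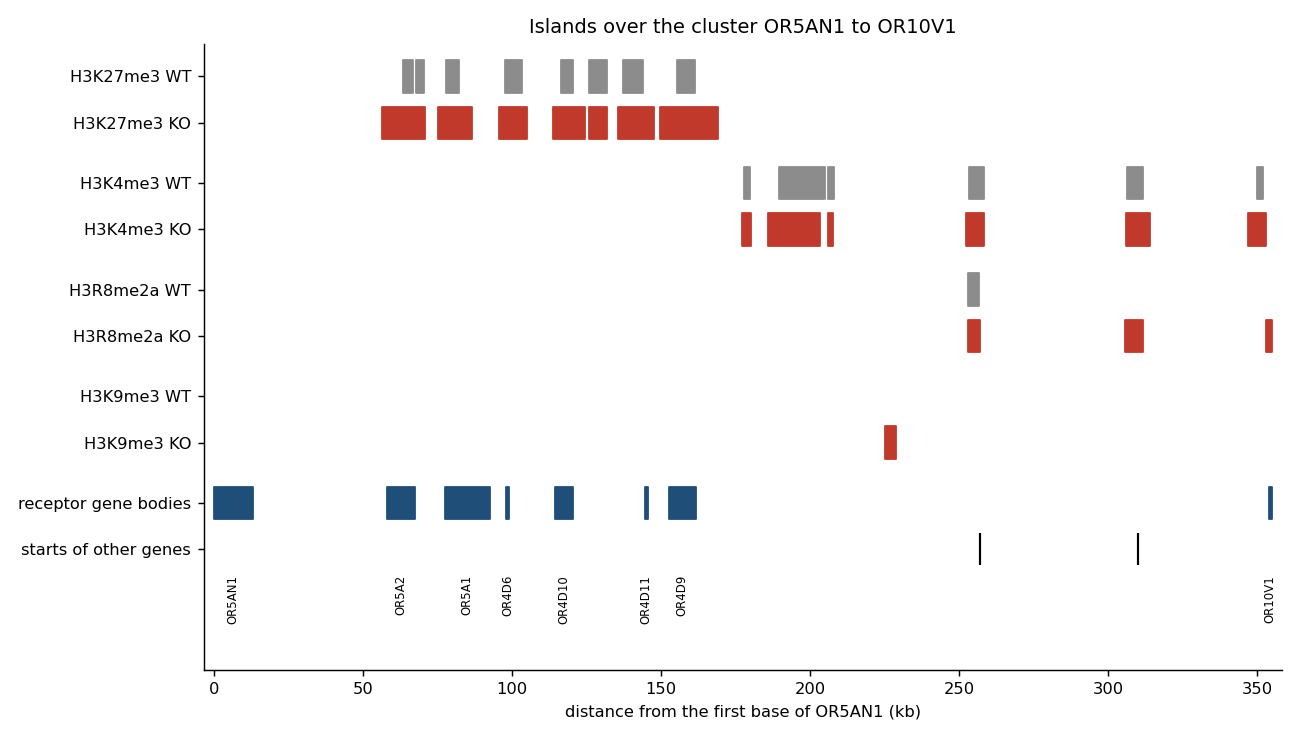
Islands of the 4 marks in WT (gray) and mdig KO (red) along the cluster OR5AN1 to OR10V1, by distance from the first base of OR5AN1 (kb), with the receptor gene bodies (blue, named below) and the starts of OSBP and PATL1 (black). H3K27me3 lies over the 6 neighbors OR5A2 to OR4D9 in both libraries, and H3K4me3 and H3R8me2a lie outside that stretch.

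The 24 members from OR6X1 to OR8A1, at chr11:123624288-124452838, had 6.76% under H3K27me3 in WT and 16.8% in KO, yet few islands lay at the genes. An island was found at 4 members in WT and 5 in KO. OR8B4 went from none to 5.56 kb, under a KO island of 25.4 kb, and was the only gain. That KO island overlapped 6.6 kb of WT islands. In WT 634 bases within 2 kb of the start of OR8B4 lay under H3K27me3, outside the counted window. OR8A1 had 8.84 kb and 16.4 kb, OR6X1 5.40 kb and 5.94 kb, OR8B8 4.4 kb and 5.80 kb, and OR8G3P 1.19 kb in both.

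The remaining class II clusters had less H3K27me3. The largest of them, the 50 members from OR4A16 to OR5AK2 in 1647 kb at chr11:55110677-56757318, had 0.328% of its length under it in WT and 1.29% in KO. Only OR5M1 had an island there, of 3.35 kb and in KO alone. The 5 members of the clusters OR4C13 to OR4C12 and OR4A5 to OR4C46 had none. OR4B1, the first of 7 members up to OR4A47, went from none to 5.93 kb, and the other 6 had no island. Of the 13 members from OR9Q1 to OR5B21 only OR9Q1 and OR9I1 had H3K27me3, in KO alone, with 9.60 kb and 3 kb. The body of OR9Q1 is 157.7 kb long and contains OR9I1, so the 3 kb is counted in both. Among the 8 members from OR2AG2 to OR2D3, OR2AG2 had 4.60 kb and 8.60 kb and the rest none. By family, the members with an island numbered 8 of 27 in WT and 11 in KO in family 52, and 3 of 37 and 4 in family 5. They numbered 6 of 23 and 9 in family 51, and 2 of 7 and 4 in family 56. In families 4, 8 and 10 they numbered 4 of 25 and 5, 3 of 25 and 4, and 0 of 16 and 2. The other families have 5 members or fewer. Of all genes 27.6% had an island in WT and 28.4% in KO.

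**Figure D4:**
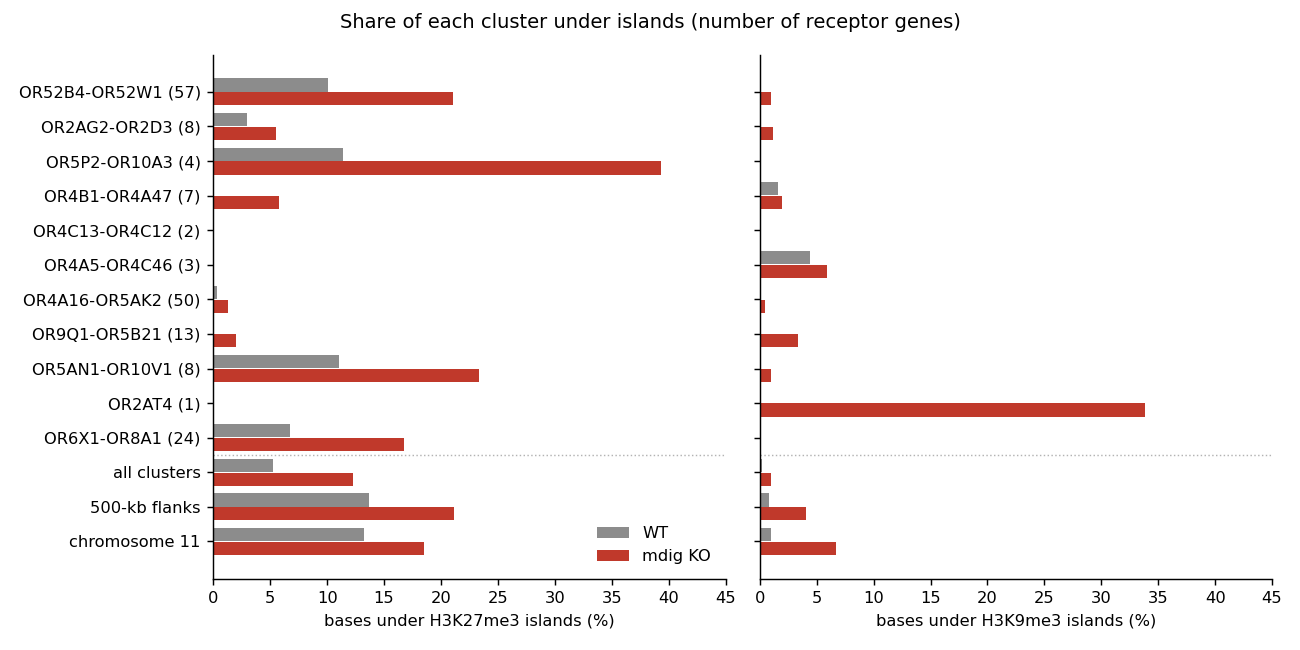
Percent of the bases of each cluster under H3K27me3 (left) and H3K9me3 (right) islands in WT (gray) and mdig KO (red), with the number of receptor genes in brackets, and below the line the same for all clusters together, their 500-kb flanks and the whole of chromosome 11. H3K27me3 of the clusters rises from 5.22% to 12.3%, and H3K9me3 of the clusters from 0.154% to 1.02%.

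Taken over the 5.86 Mb of the 10 clusters, H3K27me3 covered 5.22% in WT and 12.3% in KO, a ratio of 2.35. The 500 kb on each side of the clusters had 13.7% and 21.1%, a ratio of 1.55, the whole chromosome 13.3% and 18.5%, a ratio of 1.39, and the genome a ratio of 1.33. The clusters therefore held a smaller share than the chromosome in both libraries and had the higher ratio. Of 59 WT islands in the clusters 53 (89.8%) overlapped a KO island, and of 81 KO islands 48 (59.3%) overlapped a WT island. The 33 KO islands without a WT counterpart added up to 243.8 kb. The median island was 4.8 kb long in WT and 7.4 kb in KO, and the longest 13.0 kb and 29.4 kb. Summed length depends on how much was called in each library, and no height was available. With KO scaled to the total length of WT, genome-wide or on chromosome 11, 14 members had a gain and 1 a loss, where 4.92% and 4.74% of all genes had a gain and 3.95% and 4.13% a loss.

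H3K9me3, the mark of silent receptor genes in olfactory neurons, was nearly absent from these genes. It was found at 1 member in WT and 5 in KO, against 17.3% and 36.6% of all protein-coding genes. Within 5 kb on both sides of the start it was also found at 1 and 5 members, against 4.51% and 16.3% of all genes. A gain was called in 4 members (2.26%), where the same rule called 27.6% of all genes, and a loss in 0 members against 0.874%. OR2AT4 went from none to 7.60 kb, an amount that included 958 of its 960 coding bases. OR9Q1 had none and 6.60 kb within its long body, and OR56A3 none and 4.22 kb around its start, next to TRIM5, whose annotated start lies under the same island. OR10Q1 had none and 1.05 kb, which covered its coding sequence in full. OR10A3 was the only member with H3K9me3 in WT, 3.40 kb against 3.86 kb in KO. This stretch lies upstream of the gene, past the end of its cluster, and in KO the gene had the H3K27me3 described above as well.

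Across the clusters 2 islands of H3K9me3 lay in WT and 18 in KO. Of these 17, with 53.4 kb, had no WT counterpart. They were short, with a median of 2.8 kb. The covered share was 0.154% in WT and 1.02% in KO, a ratio of 6.62, and on chromosome 11 it was 1.00% and 6.72%, a ratio of 6.71. The share of the flanks was 0.797% and 4.05%, a ratio of 5.09, and the ratio of the genome was 3.69. In the clusters the WT side of the ratio rests on 2 islands with 9 kb in all. The class I cluster had 18.4 kb in KO and none in WT, and the cluster from OR9Q1 to OR5B21 16.2 kb and none. The clusters OR5P2 to OR10A3, OR4C13 to OR4C12 and OR6X1 to OR8A1 had no H3K9me3 island within their bounds in either library. With KO scaled to the total length of WT on chromosome 11, 1 member had a gain and 1 a loss, OR10A3, against 7.11% and 12.3% of all genes, and scaled genome-wide 3 had a gain and 1 a loss, against 13.4% and 7.98%.

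H3K4me3 was found within 2 kb of the start of 1 receptor gene, OR52N2, in each library, against 64.7% of all genes in WT and 64.4% in KO. Its island ran over chr11:5829401-5831600 in WT and over chr11:5829201-5831600 in KO, or 2.20 kb and 2.40 kb. With the 5 kb upstream included, 2 members had H3K4me3 in WT and 1 in KO, against 72.3% and 72.1% of all genes. The other member was OR2AT4, which went from 1.52 kb to none, the only call of H3K4me3, where all genes had 4.10% gains and 2.04% losses. That stretch lies more than 2 kb upstream of OR2AT4. The nearest other protein-coding gene lies 3.69 kb from the body of OR2AT4, and the stretch was not assigned to either gene. No H3K4me3 island in the clusters touched the coding sequence of a member. Of the 14 islands of WT 13 overlapped one of KO, and 6 held the start of another protein-coding gene, TRIM21, TRIM68, TRIM6, TRIM22, OSBP and PATL1.

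H3R8me2a was found at no member in WT and at OR10V1 in KO, with 1.61 kb over its start and its whole coding sequence, against 34.7% and 43.2% of all genes. This was the only call, where a gain was found in 20.0% and a loss in 8.04% of all genes. The island, at chr11:59479401-59482000, also holds the start of STX3, a syntaxin gene, and cannot be assigned to either gene. Across the clusters the mark formed 1 island in WT, at the start of OSBP, and 3 in KO, at the starts of OSBP, PATL1 and STX3.

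The receptor genes of other chromosomes and the other genes of chromosome 11 were compared over windows of equal size, the 5 kb on both sides of the start, because the median body of the members was 1.09 kb and that of all genes 27.2 kb. H3K27me3 was found in the window of 30 members (16.9%) in WT and 42 (23.7%) in KO. It was found at 70 (29.8%) and 83 (35.3%) of the 235 receptor genes of other chromosomes, and at 338 (29.6%) and 365 (32.0%) of the 1140 other genes of chromosome 11. Of all protein-coding genes 23.1% had H3K27me3 there in WT and 24.1% in KO. The receptor genes of chromosome 11 were thus the group with the lowest share in WT. In KO their share was near that of all genes. Gains were called in 10.7% of the members, 11.5% of the receptors elsewhere, 5.53% of the other genes of the chromosome and 4.29% of all genes, and losses in 0.565%, 2.98%, 0.877% and 2.32%. H3K9me3 gains were called in 1.69%, 7.66%, 12.4% and 11.8% of the same groups.

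**Figure D5:**
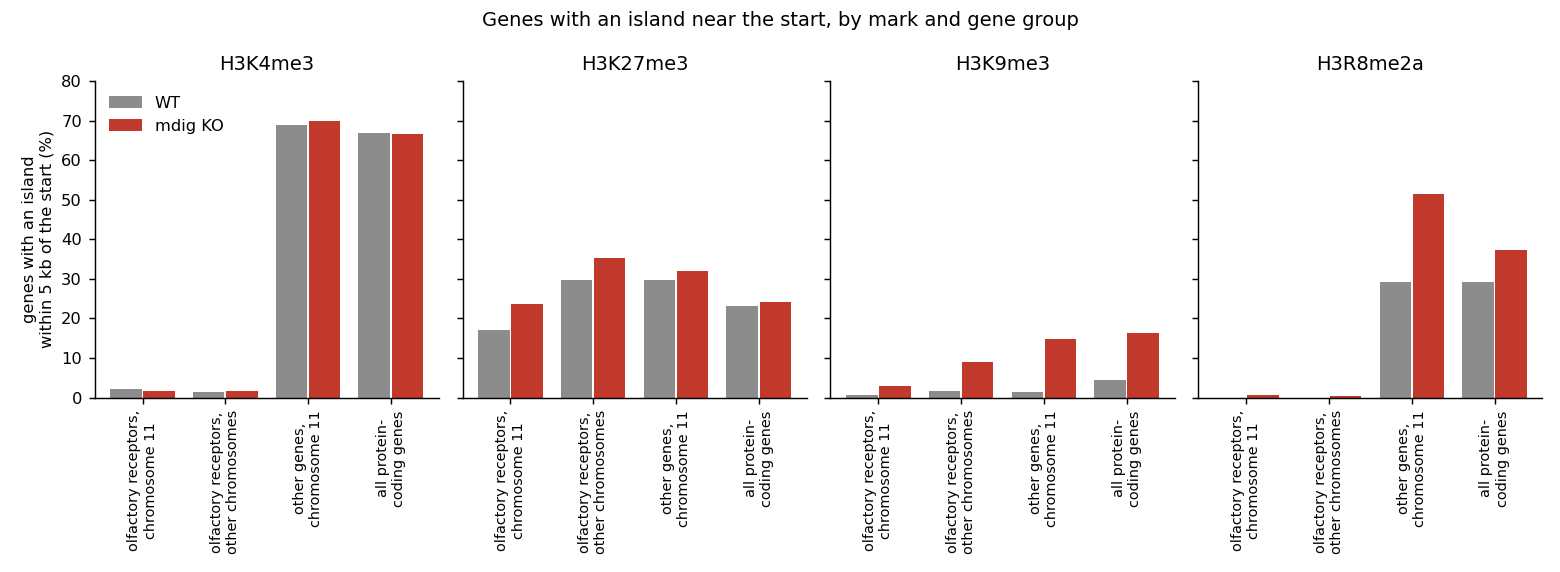
Percent of genes with an island within 5 kb of the start, separately for each mark and for WT (gray) and mdig KO (red), in the receptor genes of chromosome 11, those of other chromosomes, the other genes of chromosome 11 and all protein-coding genes. Receptor genes stand near 0% for H3K4me3 and H3R8me2a in both libraries, while their H3K27me3 is 16.9% in WT and 23.7% in KO on chromosome 11.

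Receptor genes elsewhere differed between chromosomes in level and in direction. Over the gene body and 5 kb upstream, H3K27me3 was found at 4 of the 65 receptor genes of chromosome 1 in WT and 8 in KO, at 14 and 17 of the 20 of chromosome 19, and at 12 and 13 of the 14 of chromosome 17. On chromosome 9 it was found at 13 and 11 of 26, with 1 gain and 4 losses, and on chromosome 14 at 6 and 5 of 27, with 2 gains and 3 losses. On chromosome 15 it went from 1 of 5 to 0. Of all genes 6.49% had a gain and 3.29% a loss, and the counts on single chromosomes are small.

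Base composition and mappability were set beside these counts. In the window of 5 kb on both sides of the start, the median GC content was 39.8% for the 26 members with H3K27me3 in both libraries, 39.3% for the 17 with it in KO alone and 36.5% for the 132 with it in neither. The clusters had a GC content of 36.4% to 40.7%, against 41.6% for the chromosome. Receptor genes are similar to each other, and reads that fit several genes are hard to place. Of 75-base stretches taken every 25 bases over the body and 5 kb upstream of a member, a median of 99.6% occurred once genome-wide. The lowest share was 69.1%, in OR8B2. Coding sequences were not counted apart from the sequence upstream. In 10 members fewer than 90% occurred once, and none of these had an island of any mark. The part of GC content and of read placement in the islands was not tested.

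Among the 23 other protein-coding genes inside the clusters, H3K27me3 was found at 9 (39.1%) in each library. H3K4me3 lay within 2 kb of the start of 7 in WT and 7 in KO, a lower share than the 64.7% and 64.4% of all genes, among them TRIM21, an intracellular antibody receptor, and TRIM22, an antiviral factor. H3K9me3 was gained in 6 of the 23 (26.1%), a share near the 27.6% of all genes, with TRIM5 at none in WT and 10.2 kb in KO, OSBP at none and 3.60 kb and TRIM6 at none and 1.26 kb. TRIM5 is a restriction factor of retroviruses, and its long annotated body here reaches 275.4 kb. The β-globin genes HBB, HBD and HBG1 had no island of any mark in either library. HBG2 and HBE1, annotated with bodies of 252.4 kb and 237.3 kb, had 33.0 kb and 33.1 kb of H3K27me3 in WT, against 47.4 kb and 47.5 kb in KO, over nearly the same stretch as OR51B5, and neither met the call. HBG2 also had a gain of H3K9me3, from none to 3.20 kb. That island is counted in 3 of the 6 gains, because HBG2 and 2 genes without a symbol all reach over it, and 1 of the latter also contains the island upstream of TRIM6.

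The genes of the olfactory signaling pathway were looked up by name. Of 15 genes of signaling and receptor trafficking, 6 had H3K4me3 within 2 kb of the start in WT and 6 in KO, H3K27me3 was gained in 2 and lost in 1, and H3K9me3 was gained in 7 and lost in 1. Of all genes 6.49% had a gain and 3.29% a loss of H3K27me3, and 27.6% and 0.874% of H3K9me3, and long bodies such as those of ANO2 and PDE1C offer more room for an island. GNAL, the olfactory G protein, went from 28.0 kb of H3K27me3 to none, and kept H3K4me3 at its start. CNGA2, a subunit of the olfactory cation channel, had 4.02 kb of H3K27me3 in WT and 13.8 kb in KO, and none and 8.80 kb of H3K9me3. RTP1 and RTP2, which carry receptors to the cell surface, had H3K27me3 in both libraries, 7.65 kb and 8.98 kb for RTP1 and 5.55 kb and 9.30 kb for RTP2, and H3K9me3 in KO alone, 5.65 kb and 5.55 kb. STOML3, a stomatin of olfactory cilia, had none and 4.94 kb of H3K27me3. ANO2, a chloride channel, had 223.4 kb and 315.8 kb of H3K27me3. OMP, the marker of mature olfactory neurons, had no island in WT and 3.38 kb of H3R8me2a in KO. CNGA4, the channel subunit next to the class I cluster, had 5.80 kb of H3K4me3 in WT against 4.4 kb in KO. CNGB1 had no island of any mark.

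Among 9 factors of receptor gene choice 5 had H3K4me3 at their starts in both libraries, H3K27me3 was gained in 1 and H3K9me3 in 3, against the 6.49% and 27.6% of all genes. LHX2, which binds receptor enhancers, had 35.8 kb of H3K27me3 in both libraries and no H3K4me3. LDB1, its cofactor, had 14.2 kb of H3K4me3 in WT against 13.0 kb in KO, without H3K27me3. EBF2 went from 28.3 kb to 89.7 kb of H3K27me3, the gain of this list, and from none to 13.3 kb of H3K9me3. KDM1A, the lysine demethylase LSD1, had 6.80 kb and 6.20 kb of H3K4me3.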

How the data were processed

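The ChIP-seq series holds, for H3K4me3, H3K27me3, H3K9me3 and H3R8me2a, 1 library of WT and 1 of mdig KO BEAS-2B cells, and 1 WT input that was not used here. According to the study's methods and the processing notes, reads of 75 nt were placed on hg19 by BWA, version not given in the sources used here. Afterwards the authors extended reads to 200 bp, down-sampled tags to the smallest sample and called islands with SICER 1.1, whose parameters are not given. The deposited values are island start and end coordinates on a grid of 200 bp, with no height, score or read number. Depth and precision are therefore unknown, and down-sampling and calling can move an island's ends.

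Groups were taken from the sample labels. Genes came from GENCODE 44 mapped to GRCh37 and promoter and motif sequence from the GRCh37 genome. The bases of each gene body and the 5 kb before it that lay in an island were counted with Python 3.11.15 and numpy 2.4.6, and the sums were checked against bedtools 2.31.1. A gain or loss needed a factor of 2 and a difference of 1 kb. This is a rule of size and not a test, since each group had 1 library. The script was first tested on simulated data with known answers. A cluster joined members less than 500 kb apart. Members named were those with H3K4me3 at the start, the 5 with the largest difference per mark and direction (10 for H3K9me3) and the ends of clusters, together with other genes inside clusters and listed pathway genes. Members with other values, beside these, were named after their values were seen. The members, the gene lists and this rule were chosen with earlier results of these data known. Alternatives were a factor of 1.5, other gene windows, islands of at least 1 kb, an overlap of 500 bases, KO scaled to the WT total, other cluster gaps and, added later, leaving out members that overlap another member. The sequences before the starts of some other members are not reported here.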

Additional observations from a re-analysis of the deposited data

How the results depend on the processing

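Of 112 alternative values 91 stayed close to the reported ones and 21 moved. The 91 include clusters split at gaps over 250 kb and islands of at least 1 kb. Both gave the reported values unchanged for every mark, so they do not show how firm a value is. Those counted as close include shifts in H3K27me3. Over the gene body alone it was found at 23 members in WT and 31 in KO, in place of 28 and 43. With the gene body alone, H3K27me3 gains numbered 12 (6.78%) in place of 22, against 5.44% of all genes. The H3K4me3 loss and the H3R8me2a gain both became 0, against 2.22% and 19.5% of all genes. In WT H3K4me3 was then found at 1 member and H3K9me3 at 0. With 5 kb on both sides of the start H3K4me3 was found at 4 members in WT and 3 in KO. With KO scaled to the WT total, genome-wide and on chromosome 11, H3K27me3 gains numbered 14 and 14, against 4.92% and 4.74% of all genes. H3K9me3 losses numbered 1 and 1, against 7.98% and 12.3%. Scaled on chromosome 11, H3K9me3 gains fell to 1 and H3R8me2a gains to 0, against 7.11% and 12.9% of all genes. With clusters joined over gaps of up to 1000 kb H3K27me3 covered 8.78% in WT against 16.8% in KO, H3K4me3 2.08% against 2.49%, H3R8me2a 0.712% against 1.55% and H3K9me3 0.474% against 1.97%. The joined clusters take in sequence between clusters. In the 500-kb flanks of the clusters each mark covered a larger share than in the clusters, in both libraries. The part of that sequence in the shift was not tested. A factor of 1.5 gave 30 H3K27me3 gains (16.9%), against 8.60% of all genes. Without the 13 members that overlap another member, an alternative chosen after seeing the data, H3K27me3 was found at 24 members in WT and 35 in KO, with 18 gains and 1 loss.

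No paired analysis was possible because each group had 1 library per mark and no shared replicate numbers. Without replicates the spread between cultures or colonies is unknown, and without heights or read numbers a short island and a missed one cannot be ranked by confidence.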
